A study of Oreochromis niloticus with 24 samples.

Results

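Luteinizing hormone (LH) cells are the gonadotropes of the pituitary that drive ovulation, spermiation and the late steps of gonadal steroid production. Their hormone is a dimer of a common alpha subunit, encoded by cga, and a hormone-specific beta subunit, encoded by lhb. In teleost fish LH and follicle-stimulating hormone (FSH) are made by separate cells, so each cell type can be isolated and its own receptors, channels and secretory genes listed. Gonadotropin-releasing hormone (GnRH) reaches these cells through receptors that raise intracellular calcium, while dopamine acts on them as a brake in many fishes.

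The comparison described here is between LH cells and negative cells of mature male Nile tilapia (Oreochromis niloticus, Lake Manzala strain), with 4 libraries per fraction, 8 of the 24 libraries of the series. All fish carried a red fluorescent protein driven by the LH promoter together with a green fluorescent protein driven by the FSH promoter. Pooled pituitaries were digested with trypsin and sorted, the red cells were collected as the LH fraction, the green cells as the FSH fraction, and the cells with neither colour as the negative fraction, which holds the other cells of the gland and any gonadotrope with a silent reporter. Libraries of equal number are taken below to share a sort and a pool of glands, although the labels do not state this pairing. The 4 male FSH libraries and the female libraries are used below only for contrast.

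The members are all 2392 genes of the male table, out of 2932 genes in the tables of both sexes. The table holds only genes that the authors kept because they exceeded a log2 fold change of 1 in LH or FSH cells over negative cells in these same libraries. A higher level in LH cells is therefore built into much of the table, and the p-values below describe selected genes. Levels are normalised reads (NR), in which each gene's count has been scaled by a size factor of its library. LH libraries held 362952 to 512008 reads on these genes and negative libraries 173803 to 243837, and 3 reads corresponded to 2.64 to 4.83 NR in these 8 libraries.

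LH libraries 1 and 4 differed from the others. Library 1 held 10131 NR of lhb, against 3970.5 to 4353 NR in the other LH libraries. Among the 1225 genes called higher below, library 1 was the highest LH library for 652 (53.2%) and the lowest for 279 (22.8%), and library 4 was the lowest for 589 (48.1%) and the highest for 164 (13.4%). Counts are also given without library 1, an alternative chosen after the data were seen. In these bulk libraries, fewer cells expressing a gene and less RNA per cell cannot be told apart.

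The hormone genes came first. lhb, on linkage group (LG) 13 from position 5233419 to 5236091 of the O_niloticus_UMD_NMBU assembly, read 10131, 4353, 3970.5 and 4158 NR in LH libraries 1 to 4, and 34.3, 18.1, 2.64 and 7.85 NR in the negative libraries. Every LH library lay far above every negative library, and the log2 fold change on the log2(NR + 1) scale was 8.74 ± 0.54 (SE, n = 4 against 4, limma adjusted p = 2.9e-08). The common subunit gene cga read 20688, 10254, 8955 and 7221 NR in LH and 3529, 1785, 1109 and 2351 NR in negative libraries, a log2 fold change of 2.43 ± 0.38 (limma adjusted p = 6.8e-05). The 2 fractions thus did not overlap for either subunit gene, but the negative cells kept a clear cga signal. FSH cells held more cga than LH cells, at 30519 to 78399 NR, above every LH library (log2 difference LH minus FSH -1.998, limma adjusted p = 0.00031).

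Among the remaining subunit genes, gphb5, the beta subunit of thyrostimulin, was also higher in LH cells. It read 111, 67.4, 84.3 and 61.5 NR against 47.1, 13.6, 5.27 and 16.8 NR in negative cells, with no overlap (log2 fold change 2.26 ± 0.49, limma adjusted p = 0.001). The FSH beta subunit gene fshb, the marker of the other gonadotrope, read 85.2, 114, 341 and 235 NR in LH cells and 99.6, 30.2, 184 and 110 NR in negative cells. Those ranges overlapped and the difference did not pass the test (0.91 ± 0.49, limma adjusted p = 0.11), whereas FSH cells held 30489 to 66628 NR. Without sort 1, fshb passed (1.28, limma adjusted p = 0.047). The genes for growth hormone, prolactin, thyrotropin beta, proopiomelanocortin and somatolactin are not in the table, so the other hormone cells could not be checked here. The study itself reports the growth hormone, prolactin and thyrotropin beta genes as lower in male LH than in negative cells. It reports proopiomelanocortin and somatolactin as slightly higher, and names small contamination or expression by LH cells themselves. This was not tested here.

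**Figure D1:**
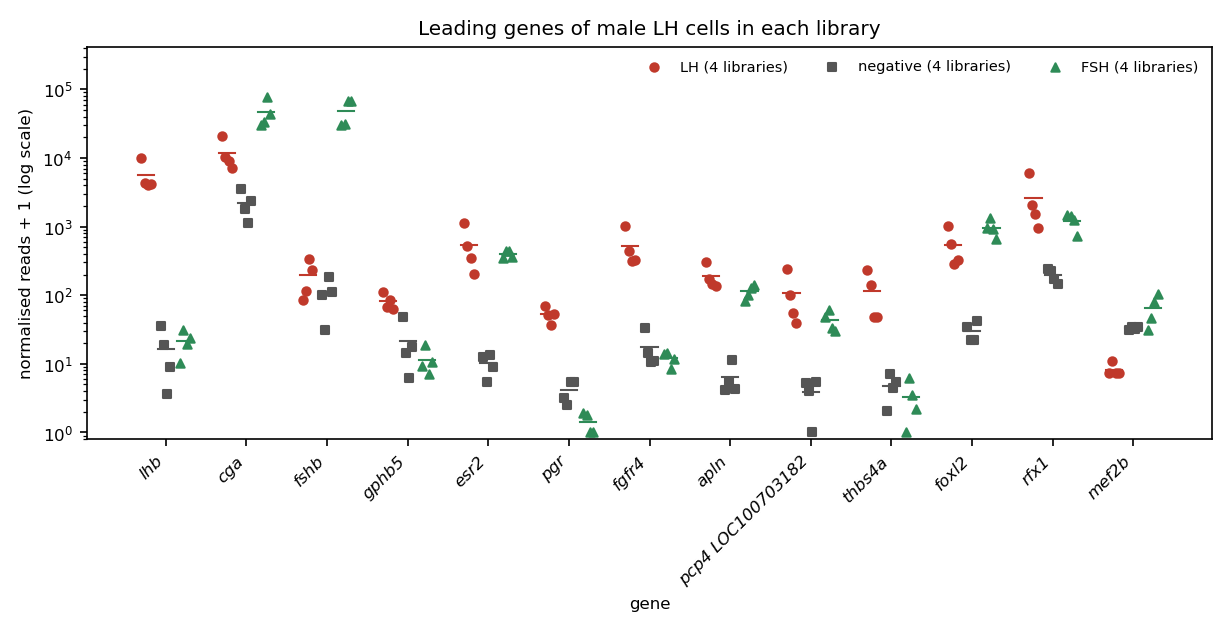
Normalised reads + 1 (log axis) of 13 genes in each male library, with LH libraries as circles, negative libraries as squares, FSH libraries as triangles and a line at each mean (n = 4). The LH circles lie above all negative squares for every gene except fshb, where they overlap, and mef2b, where they lie below.

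Over the whole table, 1225 of 2392 genes (51.2%) were called higher in LH cells, at a log2 fold change above 1 and an adjusted p below 0.05 in limma. For 1023 of these, all 4 LH libraries lay above all 4 negative libraries, and over the table the fractions were separated in this way for 1316 genes (55.0%). Only 15 genes (0.627%) were called lower, in a table that the selection had emptied of most such genes. Without LH library 1 the counts were 1164 higher and 16 lower, and 1072 of the higher calls were shared. The median log2 fold change over all genes was 1.05, the value against which the lists below can be read.

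After lhb, the largest log2 fold changes were those of esr2, apln and fgfr4. esr2, the beta-type estrogen receptor, read 1118, 515, 342 and 205 NR in LH cells and 4.52 to 12.3 NR in negative cells (log2 fold change 5.56 ± 0.40, limma adjusted p = 1.1e-07). apln (LG2, 18703292 to 18725388), which encodes the secreted peptide apelin, read 301, 169, 146 and 134 NR against 3.21 to 10.5 NR (4.93 ± 0.35). fgfr4 (LG10, 23700824 to 23718573), a receptor tyrosine kinase for fibroblast growth factors, read 1016, 440, 313 and 330 NR against 9.66 to 32.1 NR (4.91 ± 0.41). In all 3 genes LH library 1 was the highest of its fraction, and the fractions did not overlap.

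These genes differed in what FSH cells held. FSH cells had 346 to 447 NR of esr2 and 82.4 to 140 NR of apln, and neither gene was called between the 2 gonadotropes. For fgfr4 FSH cells had 7.37 to 13.5 NR, below every LH library (log2 difference LH minus FSH 5.29 ± 0.41, limma adjusted p = 3.4e-08).

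A pcp4 gene and thbs4a came next. The pcp4 gene (LOC100703182), for a small protein that binds calmodulin, read 236, 99.7, 54.1 and 38.9 NR in LH cells and at most 4.49 NR in any negative library (4.70 ± 0.57). A second pcp4 gene, named after its values were seen, read 27.3 to 54 NR against 3.02 to 14.6 NR (1.97 ± 0.49), and FSH cells held at most 0.816 NR of it. thbs4a (LG12, 17275312 to 17287431), for a thrombospondin of the extracellular matrix that the study lists under the name thrombospondin-4-B, read 228, 138, 46.9 and 47.7 NR against 1.07 to 6.03 NR (4.41 ± 0.62). FSH cells held 0 to 5.31 NR of thbs4a, and its LH excess over FSH cells was 5.14 ± 0.62 (limma adjusted p = 4.4e-06).

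The other genes among the 20 with the largest separated excess included LOC102077685, dclk3, ndst3, foxl2, camk1gb, LOC102083321, frem2a, st6galnac5b, pgr, meox2, faim2b, nkx3.3 and gnrhr3, with log2 fold changes from 3.53 to 4.34. dclk3 is a protein kinase of the doublecortin-like family, camk1gb a calcium/calmodulin-dependent kinase, and frem2a a basement membrane protein. The rule that chose these genes asked for all 4 LH libraries to exceed all 4 negative libraries, so that separation is no finding.

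At the other end, mef2b, for a transcription factor of the MADS-box family, read 6.43, 9.83, 6.25 and 6.27 NR in LH cells and 30, 33.2, 30.7 and 33.7 NR in negative cells. The 2 fractions were separated with little spread in either, and the log2 fold change was -2.03 ± 0.36 (limma adjusted p = 0.00022). The other genes with the lowest calls were gsg1l2b and 3 genes without a symbol, at log2 fold changes from -1.94 to -1.68. gsg1l2b lost its call without sort 1 (-1.06, limma adjusted p = 0.15), LOC102080028 without sort 3 (-1.35, limma adjusted p = 0.12) and LOC100697557 without sort 4 (-1.63, limma adjusted p = 0.057). LOC102080028 also lost it without sort 2 (-1.64, limma adjusted p = 0.068).

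Genes were next grouped by role, and each list is described by its calls. A gene without an annotation symbol could enter a list under the study's name for it. The study named such genes for enrichment in these same libraries, so list shares can partly repeat that choice. Counts against FSH cells are given because 14.9% of the table was called higher in LH than in FSH cells and 25.6% lower.

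**Figure D2:**
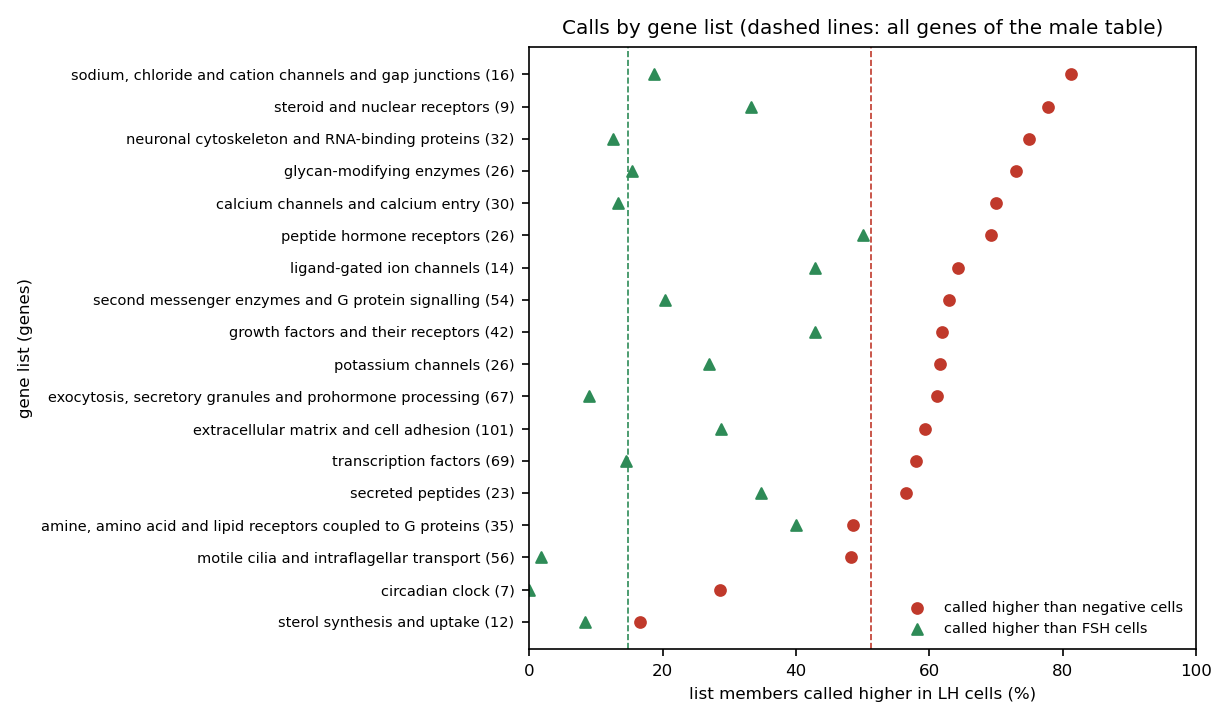
Percentage of each gene list called higher in male LH cells than in negative cells (circles) and than in FSH cells (triangles), with list sizes in parentheses and dashed lines at the values of all 2392 genes (51.2% and 14.9%). Peptide hormone receptors reach 69.2% and 50%, whereas exocytosis genes reach 61.2% and 8.96%.

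Steroid and nuclear receptors were led by esr2. Of 9 such genes, 7 were called higher and all 7 kept the call without each sort in turn, with a list median of 2.20. pgr (LG14, 32259049 to 32265247), the progesterone receptor, read 67.5, 50.6, 35.4 and 52.7 NR in LH cells and 1.51 to 4.49 NR in negative cells (3.71 ± 0.46, limma adjusted p = 1.1e-05). FSH libraries held at most 0.936 NR of pgr, and LH exceeded FSH by 5.23 on the log2 scale. hnf4a, a nuclear receptor known from liver metabolism, read 121, 63.2, 53.1 and 65.2 NR against 3.02 to 11.4 NR (3.49 ± 0.38).

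The androgen receptor gene ar, named after its values were seen, was higher as well, at 37.6 to 91.7 NR against 7.91 to 19.6 NR (2.12 ± 0.38, limma adjusted p = 0.00021). FSH cells held 50.5 to 133 NR of ar, and it was not called between LH and FSH cells (log2 difference LH minus FSH -0.78). The study lists ar and its paralogs as enriched in FSH cells. nr4a2, an orphan receptor that acts as an immediate early gene, read 293, 631, 568 and 694 NR against 87.8, 182, 73.8 and 135 NR (2.20 ± 0.32), and FSH cells held 8.39 to 12.3 NR. LH library 1 was the lowest LH library for nr4a2, opposite to its place for esr2 and pgr. esrrb, an estrogen-related orphan receptor, was above negative cells by 2.20 ± 0.28 but below FSH cells by a log2 difference of -2.84. The glucocorticoid receptor nr3c1 was not called (0.43 ± 0.20, limma adjusted p = 0.069).

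Enzymes that make or remove such ligands formed a small list of 3 genes, all called. cyp19a1b, the brain-type aromatase that turns androgens into estrogens, read 463, 499, 849 and 311 NR in LH cells and 82.5, 145, 129 and 74 NR in negative cells (2.25 ± 0.32, limma adjusted p = 3.7e-05), and FSH cells held 37.2 to 86.1 NR. cyp26a1, which degrades retinoic acid, rose by 2.09 ± 0.45. hsd17b12, for a steroid and fatty acid reductase, gave 1.17 ± 0.30 and lost its call without sort 1 (0.92).

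Receptors for peptide hormones were often called against FSH cells as well. This list could hold receptors that the study named for enrichment in these libraries, so its shares can partly repeat that choice. Of 26 genes, 18 were called higher than in negative cells (69.2%, list median 1.47) and 13 higher than in FSH cells (50%), 11 of them in both comparisons. gnrhr3 (LG1, 28407786 to 28413437), a GnRH receptor, read 389, 183, 173 and 161 NR in LH cells and 18.2, 19.6, 20.2 and 12.3 NR in negative cells, while FSH cells held 0.936 to 4.08 NR. The log2 fold change over negative cells was 3.53 ± 0.40 (limma adjusted p = 6.0e-06) and the excess over FSH cells 6.06 ± 0.40. The other GnRH receptor in the table, gnrhr1, read 6.25 to 19.3 NR in LH and 6.15 to 15 NR in negative cells, with overlapping ranges (0.14 ± 0.44).

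Receptors for somatostatin, dopamine and acetylcholine were also higher in LH cells. sstr3, a somatostatin receptor, read 117, 95.5, 42.7 and 30.1 NR against 2.24 to 10.7 NR (3.50 ± 0.48). drd2, the D2 dopamine receptor, read 88.5, 70.2, 62.5 and 70.3 NR against 9.64, 6.03, 7.03 and 7.85 NR (3.10 ± 0.31, limma adjusted p = 2.8e-06), with little spread in either fraction. chrm4, a muscarinic acetylcholine receptor, read 54.7, 33.7, 55.2 and 57.7 NR against 6.73 to 9.66 NR (2.41 ± 0.35).

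Another set of receptors was carried by negative cells too and was nearly missing from FSH cells. ntsr1, the neurotensin receptor, read 201, 347, 406 and 395 NR in LH cells, 58 to 81.4 NR in negative cells and at most 0.936 NR in FSH cells. Its excess was 2.25 ± 0.33 over negative and 7.90 ± 0.33 over FSH cells. agtr1, the angiotensin receptor, read 72.4, 108, 70.8 and 114 NR against 11.4 to 25.8 NR (2.12 ± 0.40), with at most 1.22 NR in FSH cells. adcyap1r1b, a receptor for the peptide PACAP, read 220, 395, 350 and 334 NR against 70.3 to 110 NR (1.81 ± 0.56). In each of these 3 genes LH and negative libraries were separated, and LH library 1 was the lowest or next to lowest LH library.

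ghsra, the ghrelin receptor, read 12.9, 18.3, 26 and 7.53 NR against 0 to 6.15 NR in negative cells, few reads in the latter (2.33 ± 0.62, limma adjusted p = 0.0041). cckbrb, a cholecystokinin receptor, read 743, 500, 472 and 333 NR against 46.7 to 112 NR (2.62 ± 0.28). FSH cells held 15358 to 24910 NR of cckbrb, so LH cells lay between the other fractions for this gene. galr2, a galanin receptor, read 17.7, 30.9, 32.3 and 56.5 NR in LH cells and 5.36, 19.6, 21.1 and 14.6 NR in negative cells. Its ranges overlapped, and its call (1.17 ± 0.50, limma adjusted p = 0.047) was lost without sort 2 (1.34, limma adjusted p = 0.086), sort 3 (1.36, limma adjusted p = 0.083) or sort 4 (0.93, limma adjusted p = 0.18).

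The call of some receptor genes depended on the library set and on the test. nmbr, for neuromedin B, read 57.9, 670, 919 and 479 NR in LH cells and 157, 309, 202 and 117 NR in negative cells, and its difference of 0.97 ± 0.61 did not pass (limma adjusted p = 0.16). valopa, a vertebrate ancient opsin, read 8.04, 191, 200 and 91.6 NR against 26.8, 106, 46.6 and 35.9 NR (0.66 ± 0.81, limma adjusted p = 0.47). drd3, a further dopamine receptor, read 4.83, 46.3, 37.5 and 16.3 NR against 4.49 to 12.3 NR (1.22 ± 0.63, limma adjusted p = 0.094). LH library 1 was the lowest for all 3, and it lay below negative library 1.

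Without LH library 1, nmbr (1.85, limma adjusted p = 0.00037), valopa (1.68, limma adjusted p = 0.018), drd3 (1.83, limma adjusted p = 0.0097), the histamine receptor gene hrh2b (1.66, limma adjusted p = 0.016) and the receptor partner gene ramp1 (1.55, limma adjusted p = 0.011) were all called. hrh2b read 1.61, 11.2, 21.9 and 45.2 NR in LH cells against 4.52 to 11.2 NR in negative cells. With all libraries kept and recovered reads tested, edgeR called nmbr (1.45, adjusted p = 0.020), drd3 (1.64, adjusted p = 0.021), ramp1 (1.42, adjusted p = 0.026) and hrh2b (1.56, adjusted p = 0.043) but not valopa (1.22, adjusted p = 0.094). DESeq2 called nmbr, drd3 and ramp1 but neither hrh2b (adjusted p = 0.063) nor valopa (adjusted p = 0.21). These genes are also close to absent from FSH cells, at no more than 8.42 NR in any library.

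**Figure D3:**
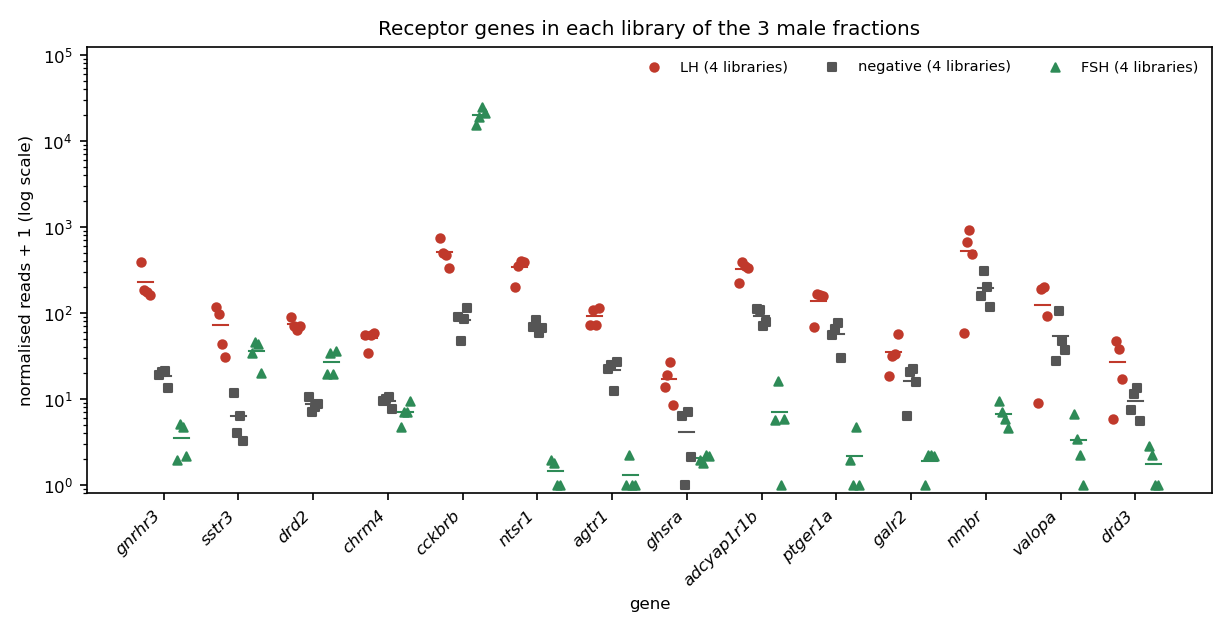
Normalised reads + 1 (log axis) of 14 receptor genes in the LH, negative and FSH libraries of males (4 libraries each, lines at the means). gnrhr3, sstr3, drd2 and chrm4 have all LH circles above the negative squares, and one LH circle, that of library 1, drops to or below the negative squares for nmbr, valopa and drd3.

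Receptors for amines, amino acids and lipids were called no more often than the table: 17 of 35 (48.6%), with a list median of 1.22, although 14 of 35 (40%) were called higher than in FSH cells. drd4-rs, a D4-type dopamine receptor, read 150, 404, 386 and 364 NR against 48.2 to 99.5 NR (2.06 ± 0.33). The GABA-B receptor genes gabbr1 (1.94 ± 0.45) and gabbr1a (1.75 ± 0.22) were both called. gpr158, an orphan receptor of the glutamate receptor class, read 171 to 293 NR against 69.6 to 86.4 NR (1.60 ± 0.21). ptger1a, a prostaglandin E receptor, had 1.28 ± 0.49 and was not called without sort 2 (1.25, limma adjusted p = 0.085) or sort 4 (0.91, limma adjusted p = 0.14).

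Ion channel lists are read here against the 51.2% called over the table. Of 30 genes for calcium channels and calcium entry, 21 were called higher (70%, list median 1.32), against 4 of 30 higher than in FSH cells. cacna1ea, the pore subunit of an R-type calcium channel, read 1924, 2393, 2351 and 2350 NR in LH cells and 590, 861, 426 and 608 NR in negative cells (1.90 ± 0.21, limma adjusted p = 6.0e-06). The receptor-operated cation channel genes trpc4a (2.29 ± 0.44) and trpc6 (2.11 ± 0.45) were above both negative and FSH cells. cacna2d1a, an accessory calcium channel subunit, rose by 2.03 ± 0.32.

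Potassium channels gave 16 calls of 26 (61.5%, list median 1.15), led by inward rectifiers. kcnj5, a channel opened by G proteins, read 74, 30.9, 19.8 and 21.3 NR against 2.14 to 5.27 NR (2.83 ± 0.57), with at most 2.81 NR in FSH cells. kcnj12a (2.09 ± 0.51) and kcnj14 (2.07 ± 0.58) are of the same family. kcnmb4, a beta subunit of the large-conductance calcium-activated channel, read 212, 319, 309 and 265 NR against 89.6 to 125 NR (1.32 ± 0.24). Its pore subunit gene kcnma1, named after its values were seen, was just past the fold limit (1.06 ± 0.19) and fell under it without sort 3 (0.93).

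In the list of sodium, chloride and cation channels with gap junctions, 13 of 16 genes were called (81.3%, list median 1.41). asic4, of the acid-sensing channel family, read 262, 298, 328 and 427 NR against 52.7 to 112 NR (2.09 ± 0.31) and FSH cells held 7.49 to 20.4 NR. The cyclic nucleotide-gated channel genes cnga4 (2.98 ± 0.35) and cnga2 (1.87 ± 0.35) and the sodium channel beta subunit gene scn3b (2.05 ± 0.25) were also higher. cnga4 was lower than in FSH cells (log2 difference LH minus FSH -1.18). gjd2, which encodes the gap junction protein connexin 36, read 298, 617, 656 and 552 NR against 112 to 169 NR (1.85 ± 0.29).

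Transmitter-gated channels were called in 9 of 14 cases (64.3%, list median 1.33). The AMPA receptor genes gria1 (2.17 ± 0.38) and gria4a (1.74 ± 0.29), the kainate receptor gene grik2 (1.83 ± 0.31) and a nicotinic subunit gene, chrnb2, led them. grik2 read 57.9, 60.4, 73.9 and 59 NR in LH cells, a narrow spread, and 12.1 to 21.4 NR in negative cells.

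Signalling enzymes and G protein genes were called in 34 of 54 cases (list median 1.21). Besides pcp4, camk1gb read 540, 510, 275 and 168 NR against 9.66 to 30 NR (3.98 ± 0.46). gnat2, a G protein alpha subunit known from cone photoreceptors, read 91.7, 47.8, 26 and 12.5 NR against 1.51 to 11.8 NR (2.63 ± 0.53), and the phosphatase gene dusp26 rose by 2.09 ± 0.26.

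The secretory machinery was higher in LH than in negative cells for 41 of 67 genes (61.2%, list median 1.21), but only 6 of 67 (8.96%) were called higher than in FSH cells and 20 were lower. cplx1, a complexin that clamps vesicle fusion, read 896, 431, 293 and 217 NR against 26.9 to 65.3 NR (3.34 ± 0.35). otof, the calcium sensor otoferlin, read 725, 520, 326 and 302 NR against 41.3 to 48.2 NR (3.24 ± 0.32), and FSH cells held more of it (log2 difference LH minus FSH -1.51). doc2b, a further calcium sensor of exocytosis, rose by 2.34 ± 0.25, and slc18a1, a vesicular monoamine transporter, by 2.23 ± 0.35.

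Some members of this list lie outside the naming rule and were chosen after their values were seen. The prohormone convertase gene pcsk1 read 914, 1053, 1031 and 1215 NR against 161 to 361 NR (2.17 ± 0.29, limma adjusted p = 2.3e-05). FSH cells held more of it (log2 difference LH minus FSH -1.27). syt7a, a synaptotagmin calcium sensor, read 645, 1028, 1032 and 916 NR against 164 to 294 NR (1.97 ± 0.22) and was one of the few also above FSH cells (1.62). The fusion protein gene snap25 was higher by 1.47 ± 0.23, at 349 to 409 NR against 81.7 to 183 NR.

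Some glycan-modifying enzymes bear on the hormone, because the clearance of pituitary LH from blood depends on its sulfated sugars in mammals. The list is wider and holds enzymes that act on other glycans. Of its 26 genes, 19 were called higher (73.1%, list median 1.27). ndst3, an enzyme that sulfates heparan chains and that the study lists as ndst4, read 1422, 760, 462 and 270 NR against 26.8 to 48.3 NR (4.13 ± 0.38). st6galnac5b, a sialyltransferase, rose by 3.77 ± 0.72, and chst1, a sulfotransferase of keratan chains, by 2.01 ± 0.31.

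The enzymes that in mammals build the sulfated terminal sugar of LH were looked up after the values were seen. chst8, which sulfates that sugar, read 786, 872, 1116 and 931 NR in LH cells and 265, 303, 254 and 292 NR in negative cells (1.72 ± 0.20, limma adjusted p = 8.7e-06). b4galnt3b and b4galnt4, which add it, were higher by 1.68 ± 0.29 and 1.30 ± 0.22, both without overlap. None of the 3 was called between LH and FSH cells.

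Transcription factors gave 40 higher calls and 1 lower among 69 (58%, list median 1.10). foxl2 (LG14, 7963940 to 7965662), a forkhead factor of gonadotropes and ovary, read 1002, 559, 281 and 330 NR in LH cells and 33.2, 21.1, 21.1 and 40.4 NR in negative cells (4.05 ± 0.35, limma adjusted p = 8.3e-07). rfx1, of the regulatory factor X family, read 6002, 2027, 1539 and 947 NR against 142 to 241 NR (3.43 ± 0.41). nkx3.3, a homeobox gene listed in the study as zampogna, read 48.2, 54.8, 28.1 and 13.8 NR against 0.878 to 3.21 NR (3.54 ± 0.41). FSH cells held more nkx3.3, at 73.9 to 87.2 NR (log2 difference LH minus FSH -1.29). meox2, a mesenchyme homeobox gene, read 33.8, 26.7, 12.5 and 6.27 NR in LH cells, with a single negative library above 0 (3.51 NR).

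General pituitary factors stood much lower in this order, and they were named after their values were seen. pitx1 read 788 to 959 NR against 354 to 529 NR (1.04 ± 0.18) and lhx4 403 to 690 NR against 173 to 321 NR (1.10 ± 0.26). Both fell under the fold limit without 1 sort, pitx1 without sort 4 (0.97) and lhx4 without sort 3 (0.99). gata2 overlapped between the fractions and was not called (0.82 ± 0.30).

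Growth factor genes were called in 26 of 42 cases (61.9%, list median 1.32) and 18 of 42 (42.9%) were called higher than in FSH cells. After fgfr4, the receptor tyrosine kinase gene ret read 487, 367, 267 and 226 NR against 35.1 to 61.7 NR (2.77 ± 0.25), and gfra2b, a co-receptor of ret for neurotrophic ligands, 206, 142, 128 and 100 NR against 14.9 to 27.1 NR (2.62 ± 0.33). fstl4, a secreted follistatin-like protein, rose by 3.04 ± 0.35 and was not called between the 2 gonadotropes. ret was lower than in FSH cells, which held 585 to 771 NR (log2 difference LH minus FSH -1.12), whereas gfra2b was higher (1.26).

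Among 23 secreted peptide genes 13 were called higher (56.5%, list median 1.22). adm2a, an adrenomedullin gene, read 1729, 1162, 959 and 822 NR against 148 to 245 NR (2.43 ± 0.24), and tafa5l, of the TAFA family of small secreted proteins, rose by 2.82 ± 0.39. pnhd overlapped between the fractions in spite of its call (2.76 ± 0.66), with 5.62 to 20.9 NR in LH and 0 to 6.03 NR in negative cells.

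Matrix and adhesion genes made up the longest list, with 60 of 101 called higher (59.4%, list median 1.17) and 1 lower. After thbs4a, frem2a read 354, 287, 183 and 95.4 NR against 4.52 to 21.3 NR (3.85 ± 0.53), dcn, the proteoglycan decorin, 54.7, 66, 34.4 and 16.3 NR against 0 to 5.27 NR (3.48 ± 0.56), and npnt, the integrin ligand nephronectin, 26 to 80.4 NR against 0 to 13.9 NR (3.23 ± 0.67).

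Genes of the neuronal cytoskeleton and of neuronal RNA binding were called in 24 of 32 cases (75%, list median 1.34), with 4 of 32 higher than in FSH cells. inab, an internexin-type neurofilament, read 103, 77.2, 66.6 and 59 NR against 6.73 to 17.1 NR (2.75 ± 0.33), and celf6, a splicing regulator, 1166, 1084, 965 and 969 NR against 207 to 368 NR (1.78 ± 0.20).

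Motile cilia genes, by contrast, were called at about the share of the table, 27 of 56 (48.2%, list median 1.03), and 1 of 56 was higher than in FSH cells. LH library 1 was the highest LH library for 25 of the 27. For the axonemal dynein gene dnah5 library 2 was the highest instead, at 1546, 2383, 2321 and 1336 NR against 277 to 706 NR (2.19 ± 0.30). Without LH library 1, 21 of the 56 genes were called.

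Sterol synthesis and uptake genes stayed near negative cells, with 2 of 12 called (16.7%, list median 0.67), and both calls were lost without a sort: the low density lipoprotein receptor gene ldlr (1.31 ± 0.56) fell to an adjusted p of 0.14 in limma without sort 2 (1.29) or sort 3 (1.31), and acss2l (1.33 ± 0.50) to 0.085 without sort 1 (1.14), 0.095 without sort 2 (1.22) and 0.052 without sort 3 (1.57). Circadian clock genes gave 2 calls of 7, of which hlfb, a PAR-domain factor, read 521, 699, 434 and 568 NR against 119 to 173 NR (2.00 ± 0.23). The interferon response list held 5 genes with a median of -0.06, and limma called 0 of them, with 0 at an unadjusted p under 0.05 and 0 called by edgeR.

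Markers of other cells were read for the whole lists. Of 6 genes for vessel wall and fibroblasts, 5 were called higher (83.3%, against 51.2% of the table). The list summed to 627 to 1126 NR in LH, 201 to 321 NR in negative and 680 to 1880 NR in FSH libraries. Against FSH cells, 3 of the 6 were called higher and 2 lower. Besides dcn, tcf15, a basic helix-loop-helix factor of mesoderm, read 33.8, 221, 209 and 108 NR against 10.7, 64.8, 14.1 and 16.8 NR (2.43 ± 0.70), overlapped, and lost its call without sort 3 (1.98, limma adjusted p = 0.079). The collagen gene col5a3a rose by 1.78 ± 0.28 but was lower than in FSH cells (log2 difference LH minus FSH -1.44). It alone gave a mean of 384 of the 827 NR in LH and 1117 of the 1351 NR in FSH libraries.

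Of 7 endothelial genes 3 were called (42.9%, against 51.2% of the table). The list summed to 274 to 693 NR in LH, 125 to 212 NR in negative and 312 to 465 NR in FSH libraries. Against FSH cells, 3 of the 7 were called higher and 4 lower. The Notch ligand gene dll4 rose by 1.91 ± 0.37, at 236 NR in LH library 1 and 77.8 to 95.8 NR in the others, and the junction gene cdh5 gave 1.18 ± 0.39, with a call that was lost without sort 2 (1.04, limma adjusted p = 0.089), sort 3 (1.10, limma adjusted p = 0.062) or sort 4 (0.99, limma adjusted p = 0.058). s1pr1 was also called (1.08 ± 0.45), but not without sort 2 (0.93, limma adjusted p = 0.18), sort 3 (1.07, limma adjusted p = 0.10) or sort 4 (0.95, limma adjusted p = 0.065).

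The macrophage list had 1 gene in the table, gpr34, a lysophospholipid receptor of macrophages and microglia. It read 16.1, 22.5, 14.6 and 94.1 NR against 7.5, 12.1, 4.39 and 22.4 NR, with the highest value of both fractions in sort 4, and was not called (1.35 ± 0.60, limma adjusted p = 0.055). With the sort as a replicate block it was called (limma adjusted p = 0.0079), and so it was without LH library 1 (1.58, limma adjusted p = 0.038) and with edgeR (1.69, adjusted p = 0.024) or DESeq2 (1.68, adjusted p = 0.019) on all libraries. No gene of the folliculostellate, red blood cell or lymphocyte lists is in the table, and the part of other cells in the LH excess of matrix, growth factor or receptor genes was not tested.

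Stress responses were read through 7 immediate early genes, of which 4 were called (57.1%, near the 51.2% of the table). Their summed level was 7805 to 10550 NR in LH, 4303 to 7569 NR in negative and 6036 to 19814 NR in FSH libraries. egr1 alone gave a mean of 5333 of the 9043 NR in LH libraries. The heat shock gene dnajb1 read 775, 854, 1869 and 1276 NR against 265 to 742 NR (1.46 ± 0.33) and egr2 896, 478, 312 and 294 NR against 86.4 to 148 NR (1.93 ± 0.35), whereas egr1 overlapped and was not called (0.47 ± 0.36). Against FSH cells, 3 of the 7 genes were called higher and 3 lower. The log2 difference LH minus FSH was -2.71 for egr2 and 5.52 for nr4a2. The part of the digestion and sort in these levels was not tested.

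Among the genes called higher, the place of LH library 1 went with the call between LH and FSH cells. Library 1 is itself part of the LH mean behind that call, so the 2 are not independent. Of the 1225 genes called higher, 290 were also called above FSH cells, 153 were called below FSH cells and 782 were not called between the 2 gonadotropes. LH library 1 was the highest LH library for 108 of the 153 genes and for 449 of the 782, but for 95 of the 290, and the lowest for 19, 132 and 128 of them. The median log2 ratio of library 1 to the mean of the other 3 LH libraries was 0.56, 0.32 and -0.19 in the same order. The genes lhb, fgfr4, thbs4a, gnrhr3 and pgr were above FSH cells and yet highest in library 1. The FSH cell gene fshb, which was not called higher, was lowest in LH library 1, at 85.2 NR. Without this library 306 genes were called above both fractions, 246 of them in common with the 290. The cause was not tested.

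**Figure D4:**
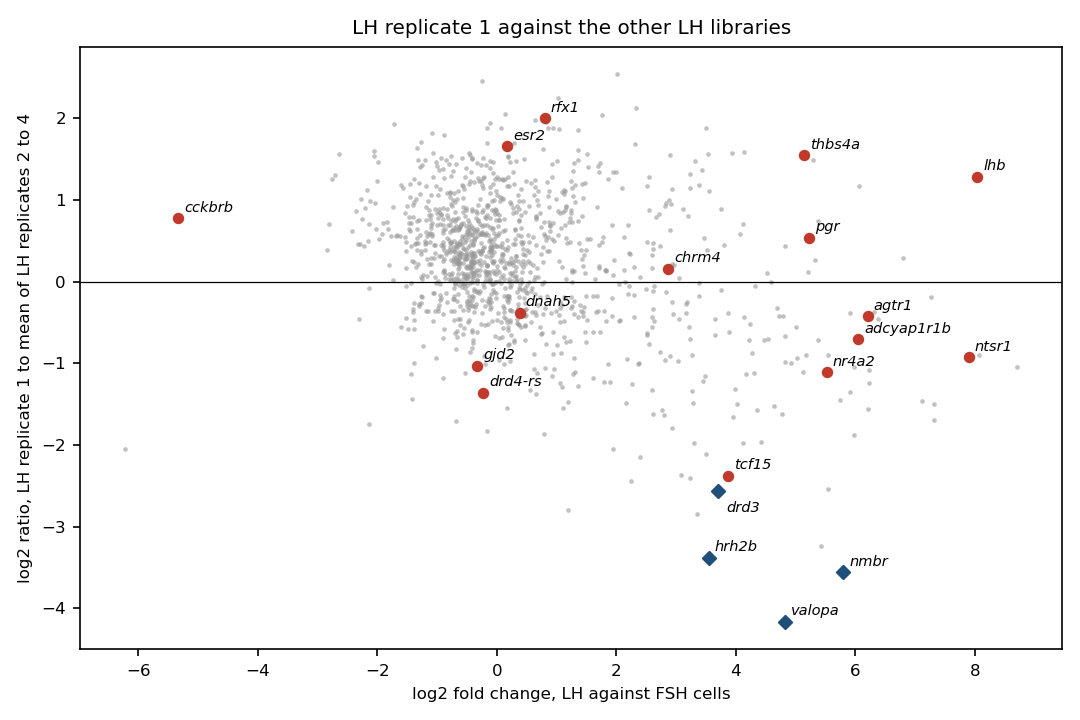
Log2 ratio of LH library 1 to the mean of LH libraries 2 to 4 (y axis) against the log2 fold change of LH over FSH cells (x axis) for the 1225 genes called higher in LH than in negative cells (grey dots, named ones as red circles) and 4 receptor genes that were not called (blue diamonds). lhb, thbs4a and pgr lie above the line at 0 on the right, whereas nmbr, valopa, hrh2b and drd3 lie far below it.

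Female LH cells offer libraries that the male selection did not use, though the female table was selected in the same way. Of the 1225 genes, 693 are in the female table, and 273 of them were called higher in female LH cells, against 304 (23.2%) of all 1309 genes in both tables. The female log2 fold change was above 0 for 662 of the 693. The share above 0 over all 1309 genes was not counted, and the selection of the female table favours positive values. lhb was higher by 7.50, esr2 by 4.05, thbs4a by 3.91, hnf4a by 3.63, LOC102083321 by 3.48, apln by 3.07, gnrhr3 by 3.04, fgfr4 by 2.98 and pgr by 2.97 in female LH cells. All 6 steroid and nuclear receptor genes in both tables were called in females. Of the 5 genes lowest in male LH cells, 3 were in both tables and all 3 were called lower in females, mef2b among them (-2.04). The share called lower in females over all genes in both tables was not counted. By the selection, genes low in LH cells enter either table only through their level in FSH cells.

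The size of the LH excess differed between the sexes for some genes. The difference itself passed in limma for 167 of 1309 genes (12.8%), of which 163 had the larger excess in males. It passed for foxl2 (4.05 in males, 1.09 in females, limma adjusted p = 0.00015), camk1gb (3.98 and 1.32, limma adjusted p = 0.012) and cga (2.43 and 0.45, limma adjusted p = 0.015). The opposite direction was seen in col5a2, a fibrillar collagen gene, with an excess of 1.53 in males and a difference of -3.48, male minus female (limma adjusted p = 0.0039), and the male call of col5a2 was lost without sort 4 (1.16, limma adjusted p = 0.064). The 2 tables were normalised separately, so each excess was formed within its own table before they were compared.

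**Figure D5:**
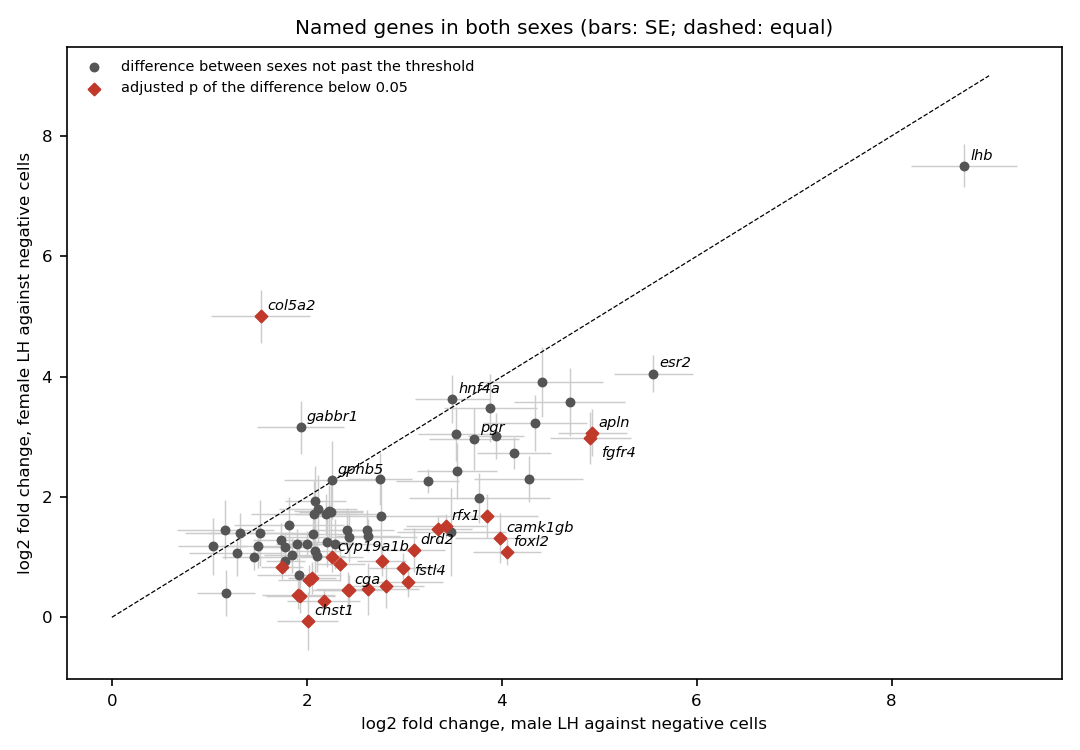
Log2 fold change of LH over negative cells in males (x axis) and females (y axis) for the named genes called higher in males and present in both tables, with bars for the SE and a dashed line of equality. Red diamonds mark genes whose difference between the sexes passed an adjusted p below 0.05, and col5a2 is the one diamond above the line.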

How the data were processed

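RNA of sorted pituitary cells was sequenced with a low-input stranded kit for total RNA. According to the submitters' notes and the study's methods, reads were checked with FastQC 0.11.4, trimmed with Trim Galore, mapped with STAR to the O_niloticus_UMD_NMBU assembly and counted per gene (HTSeq is among the tools listed). The deposited signal is the normalised read (NR), the authors' count divided by a DESeq2 size factor, in 1 table per sex. The deposited fold change tables, which hold the authors' log2 fold changes and p-values, were not used.

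In the male table the gene names stand 1 line below their values and were moved up 1 line. Each NR, divided by what 1 read was worth in its library, gave a whole number within 0.01 (100% of values), so reads could be recovered. Intervals from reads cover counting error only. The annotation matched 2012 of 2392 names. Lists were built on gene symbols, and on the study's name for a gene where the annotation gave no symbol. Genes that the study named for their enrichment in these libraries could thus enter a list.

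log2(NR + 1) of the 12 male libraries in 3 groups was fitted with limma 3.58.1 (R 4.3.3) with a mean-variance trend, tested on simulated data, with Benjamini-Hochberg adjustment over the table and a gene was called where its log2 fold change exceeded 1 in either direction with an adjusted p below 0.05. edgeR 4.0.16 and DESeq2 1.42.0 on recovered reads, other pseudocounts, a filter, a replicate block and leaving out each sort were alternatives. Libraries of equal number were taken as 1 sort, since each sort used 1 pool, but the labels do not state this pairing. Deviations of LH and negative libraries of equal number correlated at 0.11 to 0.42 across genes. Those of different numbers correlated at -0.39 to 0.17, so the ranges overlapped. Averaged over the genes tested, the chi-square between pairs of libraries of 1 fraction was 4.56 to 28.4, so none was a repeat of another. The sorts used separate pools of fish.

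Named genes were the 20 with the largest separated excess, the 5 lowest called, up to 4 called members with the largest excess of each role list, up to 3 of each marker list, the hormone subunits and genes that the study names for male LH cells. The members and lists were chosen with earlier results of these data known. One gene that this rule names is not reported here.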

Additional observations from a re-analysis of the deposited data

Results flagged for a closer look

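In 14 of 200 groups of 4 libraries of named genes with a mean of at least 10 NR, 1 library stood apart by more than Dixon's limit, while chance gives about 1 in 20. LH library 1 was concerned in 8 of them. It was the highest for lhb (10131 NR), gnrhr3 (389 NR), dll4 (236 NR), col5a2 (49.9 NR) and gpr61 (32.2 NR), and the lowest for cacna1ea (1924 NR), drd4-rs (150 NR) and ptger1a (67.5 NR). Other LH libraries stood apart in grik2 (library 3 highest, 73.9 NR), chrm4 (library 2 lowest, 33.7 NR) and gpr34 (library 4 highest, 94.1 NR). Negative libraries did so in tcf15 (library 2 highest, 64.8 NR), s1pr1 (library 1 highest, 39.6 NR) and LOC100697557 (library 1 highest, 95.3 NR).

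The LH excess differed between the sexes, by the interaction test in limma, for 25 of the 80 named genes in both tables. The difference in log2 fold change, male minus female, was 2.97 for foxl2, 2.66 for camk1gb, 2.45 for fstl4, 2.30 for tafa5l, 2.16 for cnga4, 2.16 for frem2a, 2.15 for gnat2 and 2.08 for chst1. It was 1.98 for cga, 1.98 for adm2a, 1.98 for drd2, 1.93 for fgfr4, 1.91 for rfx1, 1.90 for gria1, 1.88 for cplx1, 1.86 for apln and 1.83 for ret. Smaller differences were found for egr2 (1.59), dll4 (1.54), doc2b (1.46), scn3b (1.41), cacna2d1a (1.40), cyp19a1b (1.26) and gabbr1a (0.92). In col5a2 it was -3.48, with the larger excess in females. Male LH libraries held 362952 to 512008 reads on the table and female LH libraries 110893 to 275068, and the part of depth in these differences was not tested.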

How the results depend on the processing

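The count of genes called higher in male LH cells, 1225, was 1103 with a pseudocount of 5, 1295 with edgeR and 1299 with DESeq2, and 982 to 1234 without each sort. A test against a log2 fold change of 1 (treat) left 193 higher and 0 lower, with 2 lower at an unadjusted p under 0.05 and 14 lower by edgeR, and a fold limit of 2 on the log2 scale left 214 higher and 1 lower. The 15 genes called lower became 5 with a pseudocount of 5 and 7 to 16 without each sort, with 7 each without sorts 2 and 3. With the sort as a replicate block, 1257 genes were called higher, all 1225 among them, and gpr34 was the only named gene whose call changed. All 4 refits without a sort kept 819 of the 1225 calls. The 273 genes called in both sexes became 149 to 309 without each female sort, 149 without sort 2. Of 1613 refitted values of named genes, 67 lost a call, 24 gained one and 0 changed direction; the cause was not tested. Depth limits genes with few reads in negative cells, such as meox2.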
